A study of Mus musculus with 11 samples.

Results

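The spliceosomal small nuclear ribonucleoprotein (snRNP) genes of the Sm, U1 and U2, SF3A, SF3B and PRPF series, and the Sm-like LSM genes, were described in mouse CD8+ T cells. They were chosen by name alone, as protein-coding genes whose symbol starts with Snrp, or with Sf3a, Sf3b, Lsm or Prpf and a digit. Of 55414 genes in the gene table, 50 symbols matched. The kinase gene Prpf4b and 3 processed pseudogenes (Snrpert, Snrp1c-ps1 and Snrp1c-ps2) were left out, which gave 46 members on 14 chromosomes. The RNA came from CD8+ T cells of OT-I mice, which carry a transgenic receptor for an ovalbumin peptide, and N4 is the name of that peptide. At 12 h there were 3 groups, all of the OT-I genotype: cells given Torin, an inhibitor of the mTOR kinase, with N4 stimulation (Torin cells, n = 3, numbered 1, 3 and 4), cells given the DMSO vehicle with N4 stimulation (stimulated cells, n = 4) and cells left without treatment (naive cells, n = 4). The labels do not say whether libraries come from separate mice or cultures, so the p-values measure the spread between these samples, which may be technical.

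As background, U1, U2, U4 and U5 snRNAs each carry a ring of Sm proteins, and U6 snRNA carries a ring of LSM proteins. These particles, with the SF3A and SF3B complexes on U2 and the PRPF proteins mainly on U4/U6 and U5, recognise splice sites and the branch site and build the catalytic spliceosome. A cytoplasmic LSM ring, with Lsm1 in place of Lsm8, works instead in the decapping and decay of mRNA. T cells enlarge and raise their RNA output within hours of antigen stimulation, and mTOR is a main relay of that growth.

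Values are CPM, estimated counts scaled to a common library size by TMM, given in the order of the library numbers. Totals per library were between 241865667 and 405884097 estimated counts, which may not be single reads, so no counting interval is given. Summed T cell markers (Cd3d, Cd3e, Cd3g, Cd8a, Cd8b1 and Lck) were 2867 to 3055 CPM in Torin cells, 1811 to 2291 CPM in stimulated cells and 4563 to 5669 CPM in naive cells, so markers of the labelled cell type were present in each library and the 3 groups did not overlap. Cd4 was at most 0.0288 CPM. Libraries of number 4 held more B cell marker RNA than the others. The summed level of 7 B cell markers was 13240 CPM in Torin 4, 14390 CPM in stimulated 4 and 47390 CPM in naive 4, against 38.5 to 366 CPM in the other 8 libraries, and nearly all of it was Igkc. The defining marker Ms4a1 was at most 1.37 CPM in any library, and Pax5 was at most 0.0514 CPM. Markers of myeloid cells moved with the groups as well as with number 2. The sum of 7 markers of monocytes and macrophages was 6.62 to 9.27 CPM in Torin cells, 4.96 to 73.6 CPM in stimulated cells and 109.1 to 2051 CPM in naive cells, so every naive library was above all the others. The sum of 8 granulocyte markers was 16.4 to 50.8 CPM in Torin cells. It was 2063 CPM in stimulated 2 and 17.1 to 41.9 CPM in the other stimulated libraries, and 8407 CPM in naive 2 and 143.1 to 180.7 CPM in the other naive libraries. The part of these cells in the results was not tested beyond the counts without number 2 or number 4 given with each comparison.

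Stimulated cells carried more RNA of most of these genes than naive cells. Among the 46 members, all of which passed the filter on low counts, 34 (73.9%) rose and 3 (6.52%) fell in stimulated cells, and 9 did not pass the test (edgeR quasi-likelihood test, Benjamini-Hochberg adjusted p under 0.05 over 22238 genes). Among all genes tested, 19.2% rose and 20.2% fell. The median log2 change of the members was 1.08, against -0.22 for all genes tested. Every stimulated library was above every naive one for 33 members (19.8% of all genes) and below every naive one for 3 (21.7% of all genes). Within library numbers, 34 members were higher in the stimulated library of all 4 numbers (26.3% of all genes) and 6 were lower in all 4 (30.8% of all genes). T cell and myeloid marker sums, given above, were also apart between these groups. Without number 4 there were 31 that rose and 2 that fell, and without number 2 there were 32 and 2. Leaving out single libraries ended 4 calls: Lsm1 (without stimulated 4, naive 2 or naive 4), Sf3b3 (without stimulated 1, naive 3 or naive 4), Sf3b5 (without stimulated 2, stimulated 3, naive 1, naive 2 or naive 4) and Lsm14b (without Torin 1, Torin 3, Torin 4, stimulated 1, stimulated 2, stimulated 4, naive 3 or naive 4). In a bulk sample, more cells of a type and more RNA per cell cannot be told apart.

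Few of them passed the test between Torin and stimulated cells. Against stimulated cells, 1 member rose in Torin cells (Sf3b3, 2.17% of 46) and 5 fell (Snrpe, Snrpd1, Lsm8, Snrpd3 and Sf3b6, 10.9%), while 2.32% of all genes rose and 2.3% fell. The median log2 change was -0.14 for the members and -0.02 for all genes, and 16 members (34.8%) had an unadjusted p under 0.05, against 20% of all genes. Every Torin library was below every stimulated one for 14 members (10.1% of all genes) and above for 4 (9.56% of all genes). Within library numbers, 20 members were lower in the Torin library of all 3 shared numbers and 8 were higher, while 20.7% of all genes were lower and 20.7% higher. With the library number as a block, 0 members rose and 1 fell, Snrpe (log2 change -1.02, edgeR adjusted p = 0.0328). Snrpd1, Lsm8, Snrpd3, Sf3b6 and Sf3b3 did not pass the test in that fit. These counts also depended on single libraries. Without number 4, and without Torin 1 or Torin 3 alone, 0 members rose and 0 fell. A single member fell without Torin 4, stimulated 2, stimulated 4 or number 2. There were 2 that fell without naive 3 or naive 4, and 3 without stimulated 3 or naive 2. Snrpe stayed past the threshold without any single library other than Torin 1 or Torin 3, while Sf3b3 did not without Torin 1, Torin 3, Torin 4, stimulated 1, stimulated 2, stimulated 4, naive 3 or naive 4.

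Set against naive cells, Torin cells still carried more RNA of most members. Here 35 members rose (76.1%) and 1 fell (2.17%), against 16.4% of all genes that rose and 15.8% that fell, with medians of 0.84 for the members and -0.18 for all genes. Without number 4 there were 28 that rose and 2 that fell, and without number 2 there were 29 and 1. A second member also fell without Torin 4, the low-level Snrpn, which fell too with number 4 left out or the number as a block. Among the members described below, leaving out Torin 1 ended the calls of Lsm1, Lsm4, Lsm5, Lsm8, Prpf3 and Sf3a3, and leaving out Torin 3 those of Lsm4, Prpf4, Prpf8 and Sf3b5. Without a naive library the calls lost were among Lsm1, Lsm4, Lsm5, Prpf3 and Prpf4. This comparison shares its naive libraries with the comparison of stimulated and naive cells. With scaling by library totals alone, the median of all genes moved by -0.49 for stimulated over naive, by -0.34 for Torin over naive and by 0.13 for Torin over stimulated cells. In that scaling 23 members rose and 6 fell in stimulated over naive cells, 22 rose and 2 fell in Torin over naive cells, and 1 rose and 3 fell in Torin over stimulated cells. The median of the members was then 0.58 and that of all genes -0.71 for stimulated over naive cells, so the distance between them was 1.29.

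**Figure D1:**
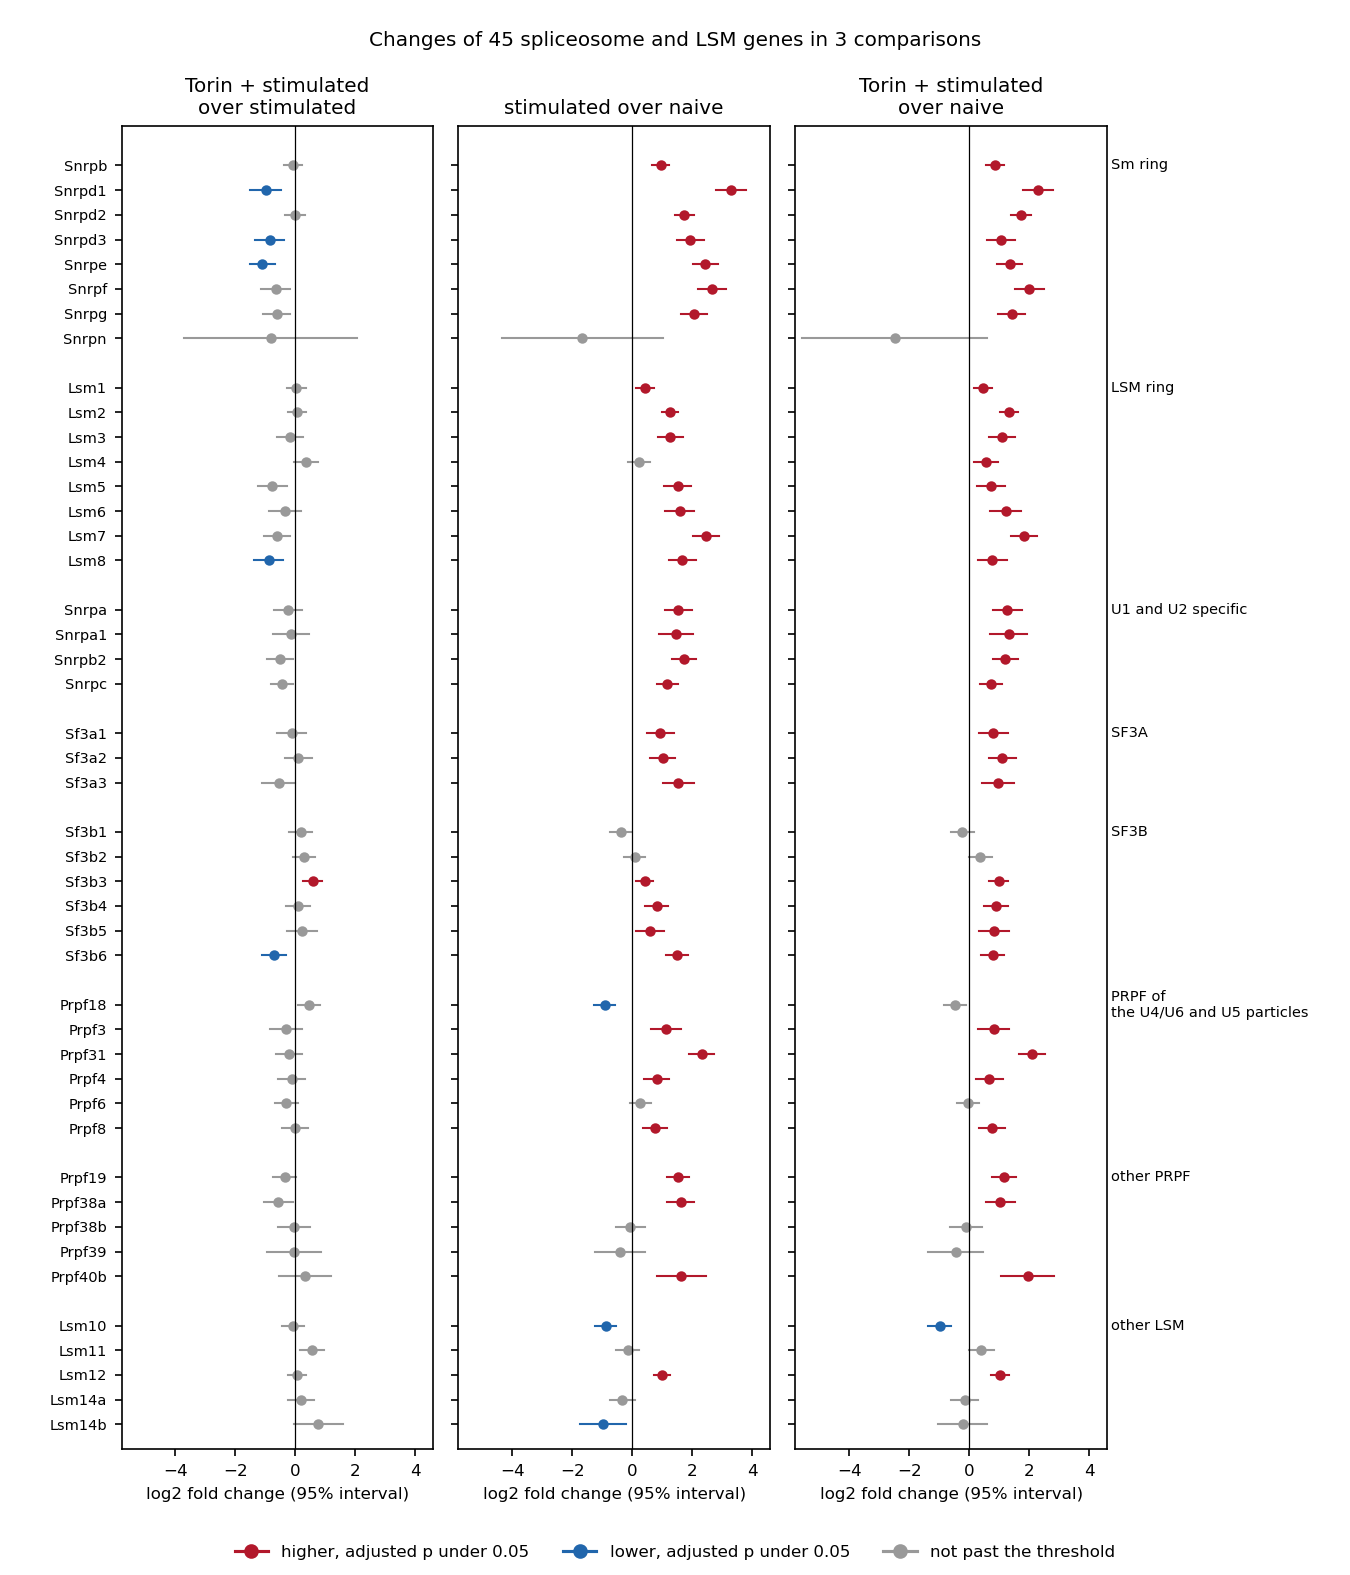
Log2 fold changes of 45 of the members (points) with 95% intervals (lines), grouped by role from top to bottom, for Torin over stimulated, stimulated over naive and Torin over naive cells. Red marks a rise and blue a fall past an edgeR adjusted p of 0.05. In the middle panel 33 of the points are red and 3 blue, and in the left panel 1 is red and 5 are blue.

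The Sm ring genes encode the proteins that close around the Sm site of U1, U2, U4 and U5 snRNAs. Of 8, 7 rose in stimulated over naive cells, with a group median of 1.99 on the log2 scale, and 7 rose in Torin over naive cells, with a median of 1.39. Snrpd1 had the largest rise of all 46 members. Its level was 918, 761 and 904 CPM in Torin cells, 1332, 1741, 2239 and 1506 CPM in stimulated cells and 196, 226, 147 and 129 CPM in naive cells. All 3 groups stood apart, with the Torin cells in between. The log2 change was -0.99 ± 0.23 (SE) for Torin over stimulated cells, edgeR adjusted p = 0.0399. For stimulated over naive cells it was 3.29 ± 0.23 (SE), edgeR adjusted p = 6.73e-06, a 9.76-fold difference.

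Snrpe, the SmE protein gene, was the member with the largest fall under Torin. It had 1257, 993 and 1227 CPM in Torin cells, 1983, 2496, 3232 and 2202 CPM in stimulated cells and 408, 554, 460 and 402 CPM in naive cells. No Torin library reached the lowest stimulated one, and all lay above every naive library. On the log2 scale it stood at -1.10 ± 0.20 (SE) for Torin over stimulated cells, edgeR adjusted p = 0.0149, and 2.44 ± 0.19 (SE) for stimulated over naive cells, edgeR adjusted p = 8.81e-06. The processed pseudogene Snrpert held 5.61 to 6.84% of the Snrpe value in every library, and how reads were split between them cannot be told from the tables. Snrpd3 encodes SmD3, the ring partner of SmB. It had 1278, 1126 and 1125 CPM in Torin cells, 1635, 2213, 2926 and 1783 CPM in stimulated cells and 504, 714, 552 and 478 CPM in naive cells. Again the 3 groups did not overlap, and the log2 change was -0.86 ± 0.22 (SE) for Torin over stimulated cells (edgeR adjusted p = 0.0486) and 1.93 ± 0.20 (SE) for stimulated over naive cells (edgeR adjusted p = 3.58e-05).

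Snrpb encodes SmB, and its rise in stimulated over naive cells was the smallest of the 7 Sm genes that rose. Its values were 1710, 1813 and 1572 CPM in Torin cells, 1967, 1558, 2080 and 1641 CPM in stimulated cells and 972, 938, 978 and 856 CPM in naive cells. Torin and stimulated libraries overlapped, and both lay above all naive libraries. The log2 change was 0.95 ± 0.13 (SE) for stimulated over naive cells (edgeR adjusted p = 0.000155) and -0.09 ± 0.14 (SE) for Torin over stimulated cells (edgeR adjusted p = 0.789, 95% interval -0.39 to 0.21). Snrpd2, the partner of SmD1 in the ring, also differed little under Torin, at -0.01 ± 0.15 (SE) with an interval of -0.34 to 0.33, and rose by 1.73 ± 0.15 (SE) in stimulated over naive cells (edgeR adjusted p = 1.12e-05). Snrpf and Snrpg, the SmF and SmG genes, rose by 2.66 ± 0.22 (SE) (edgeR adjusted p = 1.03e-05) and 2.06 ± 0.20 (SE) (edgeR adjusted p = 2.21e-05) in stimulated over naive cells. Under Torin their log2 changes against stimulated cells were -0.66 and -0.63 (edgeR adjusted p = 0.127 and 0.118), with no overlap between the groups for either. Snrpn, the SmN gene that replaces SmB in neurons, had at most 5.76 CPM in any library, did not pass the test in any comparison and overlaps Snurf on the same strand.

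**Figure D2:**
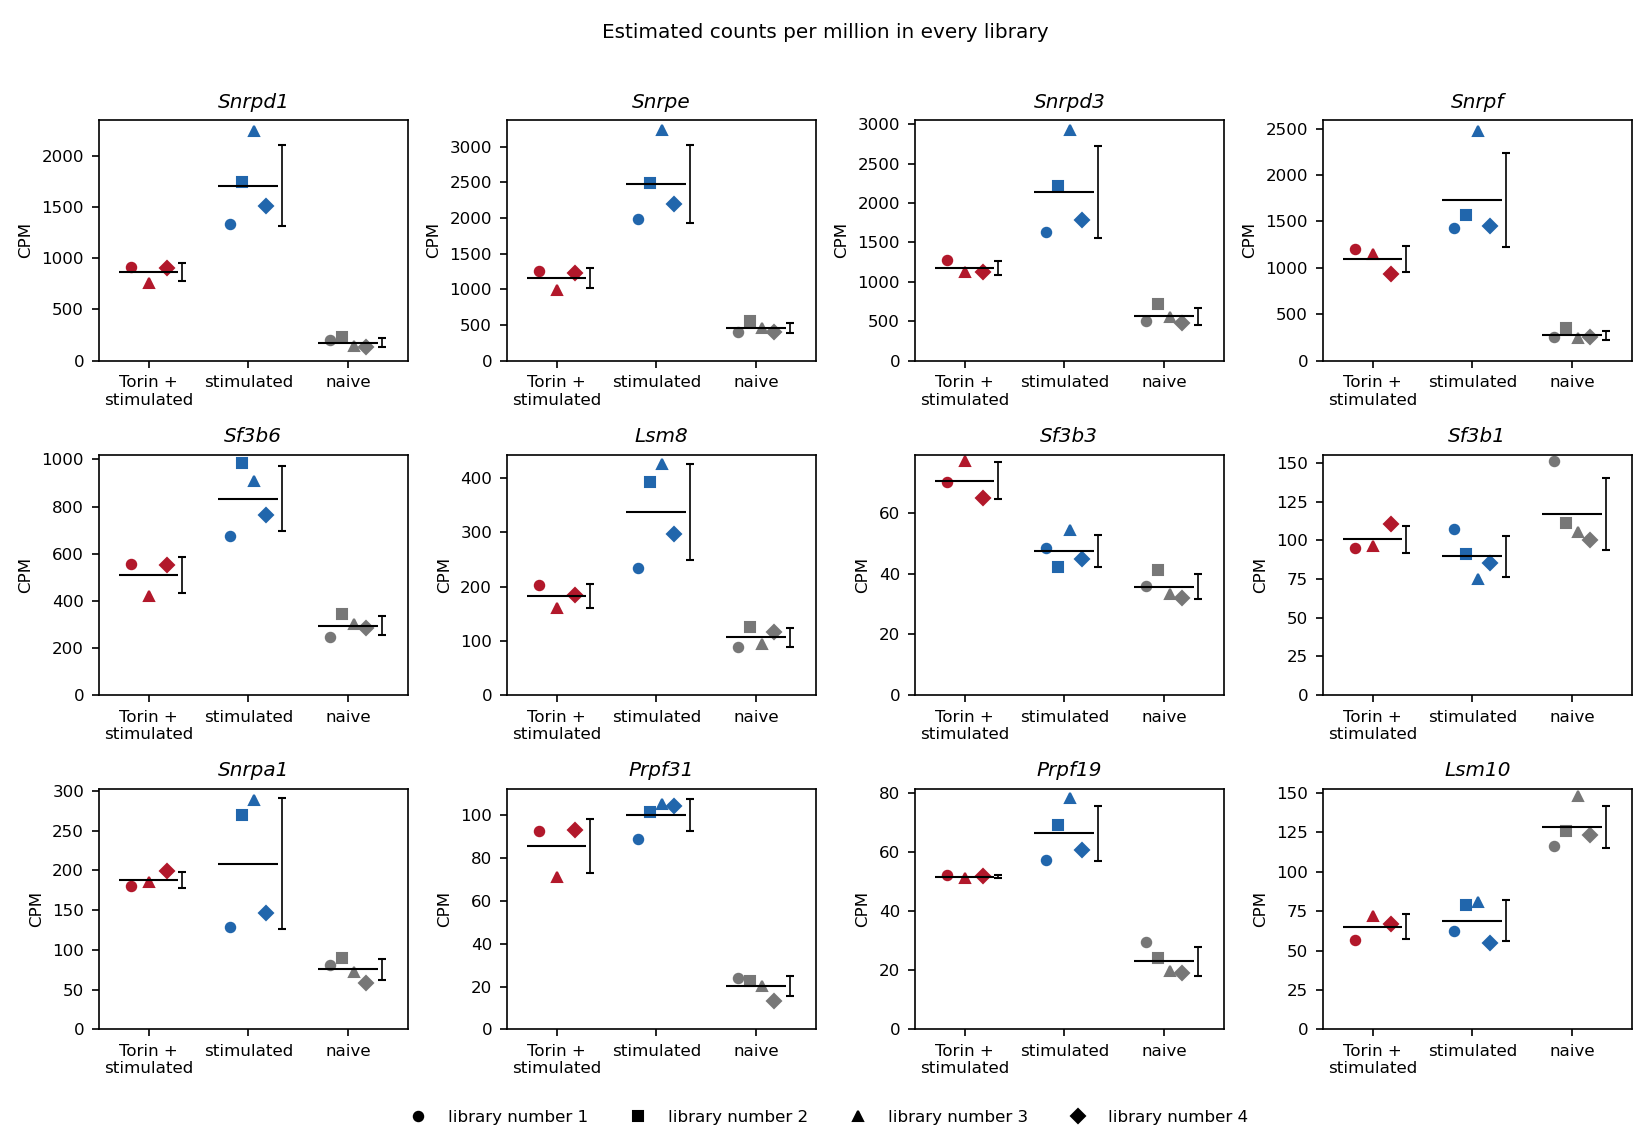
CPM of 12 members in every library, with the Torin, stimulated and naive cells from left to right, the mean as a line, the SD as a bar and the library number as the point shape. Snrpd1 shows the 3 groups apart, at means of 861, 1704 and 175 CPM, while Sf3b1 shows overlap of all 3 and Lsm10 is higher in naive cells.

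The LSM ring genes rose in stimulated cells in 7 of 8 cases, with a median log2 change of 1.39, and in Torin over naive cells in 8 of 8, with a median of 0.94. Lsm7 rose most. It had 849, 790.1 and 655 CPM in Torin cells, 942, 1127, 1635 and 1008 CPM in stimulated cells and 200, 239.7, 227 and 188 CPM in naive cells. The stimulated libraries were all above the Torin ones, and the naive ones were lowest. Its log2 change was 2.46 ± 0.19 (SE) for stimulated over naive cells (edgeR adjusted p = 9.85e-06) and -0.62 ± 0.20 (SE) for Torin over stimulated cells (edgeR adjusted p = 0.11). Lsm4, a shared subunit of both rings, had the smallest change of the group, with 627, 762 and 534 CPM in Torin cells, 479, 459, 647 and 416 CPM in stimulated cells and 417, 475, 454 and 369 CPM in naive cells. Stimulated and naive libraries overlapped, and the log2 change between them was 0.22 ± 0.17 (SE) (edgeR adjusted p = 0.33, 95% interval -0.15 to 0.59).

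Lsm8 defines the nuclear ring that binds U6 snRNA, and it fell under Torin. It had 204, 159.9 and 185 CPM in Torin cells, 234, 393, 426 and 296 CPM in stimulated cells and 88.3, 125, 94.7 and 116 CPM in naive cells. The Torin libraries were all below the stimulated ones and all above the naive ones. On the log2 scale it stood at -0.88 ± 0.22 (SE) for Torin over stimulated cells (edgeR adjusted p = 0.0467) and 1.67 ± 0.20 (SE) for stimulated over naive cells (edgeR adjusted p = 8.81e-05). Lsm1 defines the cytoplasmic ring, which marks mRNAs for decapping. It had 121, 111 and 135 CPM in Torin cells, 115, 105, 139 and 119.8 CPM in stimulated cells and 97.8, 78.9, 97.1 and 81.8 CPM in naive cells. Libraries of Torin and stimulated cells overlapped, at a log2 difference of 0.03 ± 0.14 (SE) with a 95% interval of -0.28 to 0.35. In stimulated over naive cells Lsm1 rose by 0.43 ± 0.13 (SE) (edgeR adjusted p = 0.0241) under TMM scaling, but the value was -0.07 under library totals alone.

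The ratio of Lsm8 to Lsm1 in TPM, a level per transcript length, does not depend on how libraries are scaled. It was 5.16, 4.37 and 4.08 in Torin cells, 6.42, 12.2, 10.1 and 7.86 in stimulated cells and 2.89, 4.78, 3.02 and 4.42 in naive cells. The Torin values lay below every stimulated value and overlapped the naive ones. For the ring neighbours Snrpd1 and Snrpd2 the same ratio was 2.59, 1.79 and 2.68 in Torin cells, 3.92, 5.02, 4.9 and 3.97 in stimulated cells and 1.73, 1.9, 1.16 and 1.28 in naive cells. Here too the stimulated libraries were the highest. Both ratios were chosen after their values were seen and carry no test. The other ring members, Lsm2, Lsm3, Lsm5 and Lsm6, shared by both rings, rose by 1.26, 1.27, 1.51 and 1.58 on the log2 scale in stimulated over naive cells. For Torin over stimulated cells Lsm5 was at -0.78 ± 0.22 (SE) (edgeR adjusted p = 0.0749) and the groups did not overlap, while Lsm2, Lsm3 and Lsm6 overlapped.

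**Figure D3:**
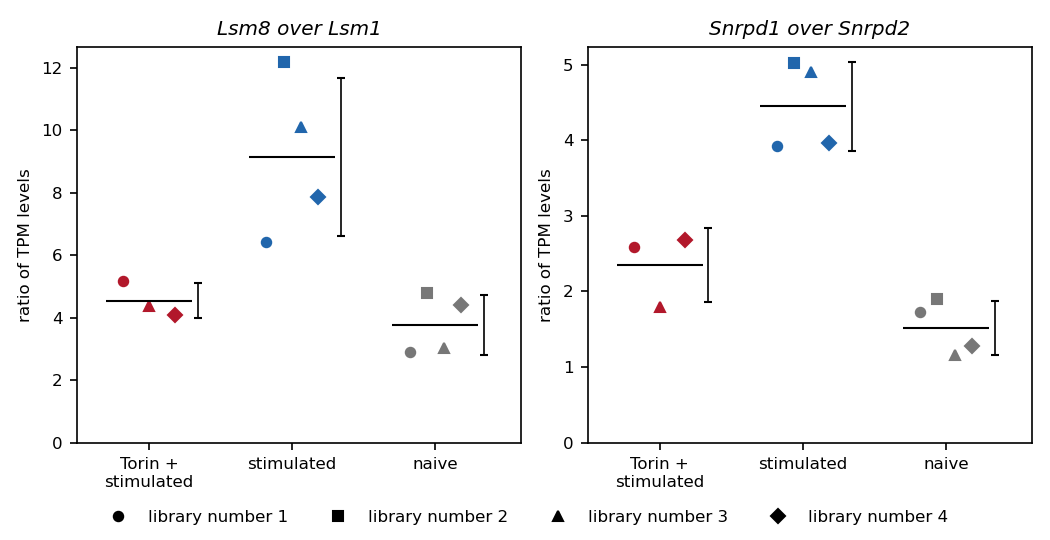
Ratio of TPM levels of Lsm8 to Lsm1 (left panel) and of Snrpd1 to Snrpd2 (right panel) in every library of Torin, stimulated and naive cells, with the mean as a line, the SD as a bar and the library number as the point shape. The 4 stimulated libraries lie between 6.42 and 12.2 in the left panel and between 3.92 and 5.02 in the right panel, above all Torin and naive libraries.

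The proteins specific to U1 and U2 rose in 4 of 4 cases, with a median of 1.5 in stimulated over naive cells and 1.24 in Torin over naive cells, and 0 of 4 passed the test between Torin and stimulated cells. Snrpb2 encodes the B'' protein of U2, which binds a loop of U2 snRNA. It had 172, 152 and 209 CPM in Torin cells, 177, 269.5, 318 and 248 CPM in stimulated cells and 70.6, 85.4, 77.9 and 72.9 CPM in naive cells. Torin and stimulated libraries overlapped, and the naive ones were apart and lower. The log2 change was 1.72 ± 0.18 (SE) for stimulated over naive cells (edgeR adjusted p = 3.85e-05). Snrpc encodes the C protein of U1, which helps it hold the 5' splice site, and it changed least of the group. Its values were 193, 197 and 163 CPM in Torin cells, 207, 257, 318 and 221 CPM in stimulated cells and 96, 124, 109 and 115 CPM in naive cells. All 3 groups were apart in CPM. On the log2 scale it stood at 1.17 ± 0.16 (SE) for stimulated over naive cells (edgeR adjusted p = 0.000164) and -0.44 ± 0.17 (SE) for Torin over stimulated cells, which did not pass the test (edgeR adjusted p = 0.176). Snrpa, for the A protein of U1, rose by 1.53 and Snrpa1, for the A' protein of U2, by 1.47 on the log2 scale in stimulated over naive cells (edgeR adjusted p = 0.000163 and 0.001).

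SF3A joins SF3B to form the part of U2 that reads the branch site. All 3 SF3A genes rose in stimulated cells. Sf3a3 rose most, with 78.8, 57.3 and 57.5 CPM in Torin cells, 117, 96.2, 81.8 and 87 CPM in stimulated cells and 46.4, 30, 34.6 and 20.9 CPM in naive cells. The groups were apart, and the log2 changes were 1.53 ± 0.24 (SE) for stimulated over naive cells (edgeR adjusted p = 0.000378) and -0.56 ± 0.25 (SE) for Torin over stimulated cells (edgeR adjusted p = 0.241). Sf3a1 rose least, with 17, 16.8 and 19.8 CPM in Torin cells, 19, 18.6, 21 and 19.5 CPM in stimulated cells and 12.7, 7.64, 13.2 and 7.24 CPM in naive cells. Libraries of Torin and stimulated cells overlapped and the naive ones were lower, at 0.94 ± 0.21 (SE) for stimulated over naive cells (edgeR adjusted p = 0.00412). Sf3a2 lay close to it, at 1.01 ± 0.19 (SE) (edgeR adjusted p = 0.00171).

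Of the 6 SF3B genes, 4 rose and 0 fell in stimulated over naive cells, with a median of 0.50. In Torin over stimulated cells Sf3b3 rose and Sf3b6 fell, and neither passed the test with the library number as a block. Sf3b6 encodes the small subunit that lies near the branch adenosine. It had 555, 420.1 and 551 CPM in Torin cells, 675, 984, 908 and 766 CPM in stimulated cells and 246, 345, 302 and 287 CPM in naive cells. All Torin libraries were below all stimulated libraries and above all naive ones. The log2 change was -0.71 ± 0.18 (SE) for Torin over stimulated cells (edgeR adjusted p = 0.0485) and 1.5 ± 0.17 (SE) for stimulated over naive cells (edgeR adjusted p = 4.83e-05). Sf3b3, a large propeller-shaped subunit, was the member that rose under Torin, in a gene-level estimate that includes a retained-intron transcript described below. It had 70.2, 77.1 and 65.1 CPM in Torin cells, 48.7, 42.2, 54.5 and 44.8 CPM in stimulated cells and 36.1, 41.4, 33.3 and 32 CPM in naive cells. The Torin libraries were all above the stimulated ones, which were above the naive ones. On the log2 scale it stood at 0.57 ± 0.14 (SE) for Torin over stimulated cells (edgeR adjusted p = 0.0442), and 0.41 ± 0.13 (SE) for stimulated over naive cells (edgeR adjusted p = 0.0272), where library totals alone gave -0.08. Sf3b3 overlaps Cog4 on the opposite strand, and the kit does not mark strand, so their reads cannot be told apart. The same holds for Prpf31, Prpf6, Sf3a2, Sf3b2, Sf3b4, Snrpd3 and Snrpf, each of which has an annotated gene on the opposite strand. It holds too for Snrpg, Snrpn, Snrpa, Lsm14a, Prpf39 and Prpf40b. On their own strand, Sf3b3 (Gm22193 and Snord111), Sf3b4, Lsm14a, Prpf39, Snrpn, Lsm3, Sf3a3 and Snrpa1 overlap another annotated gene.

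Sf3b1 encodes the scaffold that clamps the branch site duplex and is the SF3B gene most often mutated in blood cancers. It had 94.9, 96.1 and 110.5 CPM in Torin cells, 107, 90.8, 75.2 and 85.1 CPM in stimulated cells and 152, 111, 105 and 100 CPM in naive cells. Stimulated libraries overlapped the naive ones, at -0.38 ± 0.16 (SE) (edgeR adjusted p = 0.0833), and Torin libraries overlapped both. Sf3b2, a partner of the branch site subunits, changed least of the group, with 103, 111 and 81.7 CPM in Torin cells, 75.5, 79.9, 95.7 and 72.3 CPM in stimulated cells and 86, 75.9, 84.1 and 59.4 CPM in naive cells. All groups overlapped, at 0.08 ± 0.16 (SE) for stimulated over naive cells with a 95% interval of -0.27 to 0.43. Sf3b4 and Sf3b5 rose by 0.81 and 0.60 in stimulated over naive cells (edgeR adjusted p = 0.00315 and 0.0446).

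The PRPF genes of the U4/U6 and U5 particles rose in 4 of 6 cases in stimulated over naive cells, and Prpf18 fell. Prpf31, which bridges U4 and U6, rose most, with 92.8, 71.2 and 93 CPM in Torin cells, 89.1, 102, 105 and 105 CPM in stimulated cells and 24.2, 22.6, 20.4 and 13.5 CPM in naive cells. Torin and stimulated libraries overlapped, and both lay far above the naive ones, at 2.31 ± 0.19 (SE) for stimulated over naive cells (edgeR adjusted p = 1.03e-05). Prpf6, a U5 bridging protein, changed least, with 15.8, 14.3 and 14.7 CPM in Torin cells, 21.8, 15.1, 20 and 17.1 CPM in stimulated cells and 15.4, 16.3, 17.4 and 12.5 CPM in naive cells. The groups overlapped, at 0.27 ± 0.16 (SE) with a 95% interval of -0.08 to 0.61. Prpf8, the U5 protein at the catalytic centre, had 26.2, 36.3 and 26.8 CPM in Torin cells, 26.4, 26.1, 34.5 and 32.7 CPM in stimulated cells and 18.6, 14.5, 22 and 15.2 CPM in naive cells. Its Torin and stimulated libraries overlapped, at -0.01 with an interval of -0.44 to 0.42. Both were above the naive ones in CPM, at 0.77 ± 0.18 (SE) for stimulated over naive cells (edgeR adjusted p = 0.00613). In TPM, the stimulated libraries of Prpf8 (2.62 to 3.21) overlapped the naive ones (1.84 to 3.52). Prpf3 and Prpf4, which bind each other on U4/U6, rose by 1.14 and 0.81 (edgeR adjusted p = 0.00211 and 0.0056). Prpf18, a factor of the catalytic step that joins exons, fell to a mean of 6.78 ± 0.599 CPM in stimulated cells, against 12.9 ± 2.02 CPM in naive cells (SD, n = 4 each). Its log2 change was -0.92 ± 0.15 (SE) (edgeR adjusted p = 0.000664).

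Of the other PRPF genes, 4 of 6 rose in stimulated over naive cells. Prpf19, the ubiquitin ligase that names the Prp19 complex, had 52.4, 51.2 and 51.8 CPM in Torin cells, 57.5, 69.1, 78.5 and 60.6 CPM in stimulated cells and 29.5, 24.3, 19.8 and 19 CPM in naive cells. The 3 groups were apart, with a log2 change of 1.52 ± 0.17 (SE) for stimulated over naive cells (edgeR adjusted p = 4.39e-05) and -0.36 ± 0.18 (SE) for Torin over stimulated cells (edgeR adjusted p = 0.29). Prpf40b, a U1-associated protein, had the largest change of the group, at low levels of 6.89, 7.86 and 4.18 CPM in Torin cells, 5.82, 4.8, 5.67 and 3.95 CPM in stimulated cells and 3.02, 0.957, 1.47 and 1.06 CPM in naive cells. Stimulated libraries were all above the naive ones, at 1.64 ± 0.38 (SE) (edgeR adjusted p = 0.00503). In several libraries most of this estimate was the retained-intron transcript Prpf40b-214. Its share was 7.09, 83.3 and 50.7% in Torin cells, 13.9, 14.6, 81.8 and 5.57% in stimulated cells and 11.4, 100, 61.4 and 64.8% in naive cells. Prpf38b had the smallest change, with 21.1, 15.4 and 17.1 CPM in Torin cells, 20.4, 18, 18 and 17.9 CPM in stimulated cells and 26.5, 22.9, 15.5 and 12.4 CPM in naive cells. Its groups overlapped, at -0.06 ± 0.22 (SE) for stimulated over naive cells. Prpf38a, a subunit that joins before activation of the spliceosome, rose by 1.61 in stimulated over naive cells (edgeR adjusted p = 0.000127), while U1-associated Prpf39 was at -0.40 ± 0.38 (SE) (edgeR adjusted p = 0.447).

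The LSM genes outside the rings of splicing and decay were 5, of which 1 rose and 2 fell in stimulated over naive cells, against 19.2% and 20.2% of all genes. Lsm10 and Lsm11 belong to the U7 particle that cuts histone mRNA ends. Lsm10 had 56.6, 71.7 and 67.1 CPM in Torin cells, 62.2, 78.9, 80.6 and 54.6 CPM in stimulated cells and 116, 126, 148 and 124 CPM in naive cells. Libraries of Torin and stimulated cells overlapped and all lay below every naive library, with a log2 change of -0.89 ± 0.16 (SE) for stimulated over naive cells (edgeR adjusted p = 0.000901) and -0.98 ± 0.17 (SE) for Torin over naive cells (edgeR adjusted p = 0.00139). Lsm11 had 21.1, 27.1 and 19.8 CPM in Torin cells, 17.4, 15.6, 13.8 and 14.9 CPM in stimulated cells and 19.8, 16.2, 19.5 and 12.8 CPM in naive cells. Its stimulated and naive libraries overlapped, at -0.15 ± 0.17 (SE), and its Torin libraries were above the stimulated ones without passing the test (0.56 ± 0.19 (SE), edgeR adjusted p = 0.122). Lsm12 rose, with 88.7, 100.3 and 93.2 CPM in Torin cells, 81.6, 99.3, 99.5 and 82.4 CPM in stimulated cells and 51.5, 43.3, 47.2 and 41.8 CPM in naive cells. Torin and stimulated libraries overlapped above the naive ones, at 0.98 ± 0.12 (SE) for stimulated over naive cells (edgeR adjusted p = 0.000107). Of the P-body repressor genes, Lsm14b fell by 0.97 on the log2 scale (edgeR adjusted p = 0.0457) although its groups overlapped, and Lsm14a was at -0.33 ± 0.19 (SE) (edgeR adjusted p = 0.191).

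Levels were compared between members per length, in TPM within the stimulated libraries. Snrpe stood highest, at 3524 ± 256 TPM, then Lsm7 at 1746 ± 190 TPM, Snrpg at 1619 ± 177 TPM, Snrpd1 at 1511 ± 128 TPM and Snrpf at 1425 ± 187 TPM (SD, n = 4). The neighbours from Lsm7 to Snrpf each differed from the next by less than their SD. The large proteins were far lower: Sf3b1 was at 13.1 ± 3.3 TPM, Sf3b3 at 11 ± 1.85 TPM and Prpf8 at 2.9 ± 0.283 TPM. These levels rest on transcript lengths from GENCODE M21, and 3' or 5' bias of the library would shift them. TPM was not scaled by TMM, and in TPM the stimulated and naive libraries overlapped for several members that rose in CPM. Among them were Snrpb (1004 to 1462 and 665 to 1177 TPM), Sf3a1, Sf3b4, Prpf3, Prpf4 and Prpf8. For Snrpd1 they stayed apart (1379 to 1631 and 143 to 346 TPM).

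The changes also ran with the length of the longest annotated coding transcript of each gene. These transcripts span 494 nt (Lsm5) to 7442 nt (Prpf8) among the members. The longest is not always the main one. For Lsm7 it has 1129 nt and held 1.53 to 10.3% of the estimate, while the main transcript has 468 nt. For Prpf19 it has 6035 nt and held 1.13 to 6.57%, while the main transcript has 2134 nt. Across the 46 members, Spearman's rho between length and log2 change was 0.47 for Torin over stimulated cells and -0.45 for stimulated over naive cells, against 0.14 and -0.10 across 14231 coding genes. The points share libraries, so these are descriptions. The 17 members under 1500 nt had a median log2 change of -0.44 for Torin over stimulated cells, and the 29 longer ones -0.05. For stimulated over naive cells these medians were 1.51 and 0.81. Among all coding genes the medians were -0.16 under 1500 nt and 0.01 above it for Torin over stimulated cells, and -0.08 and -0.41 for stimulated over naive cells. The part of RNA quality or library making in this was not tested.

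**Figure D4:**
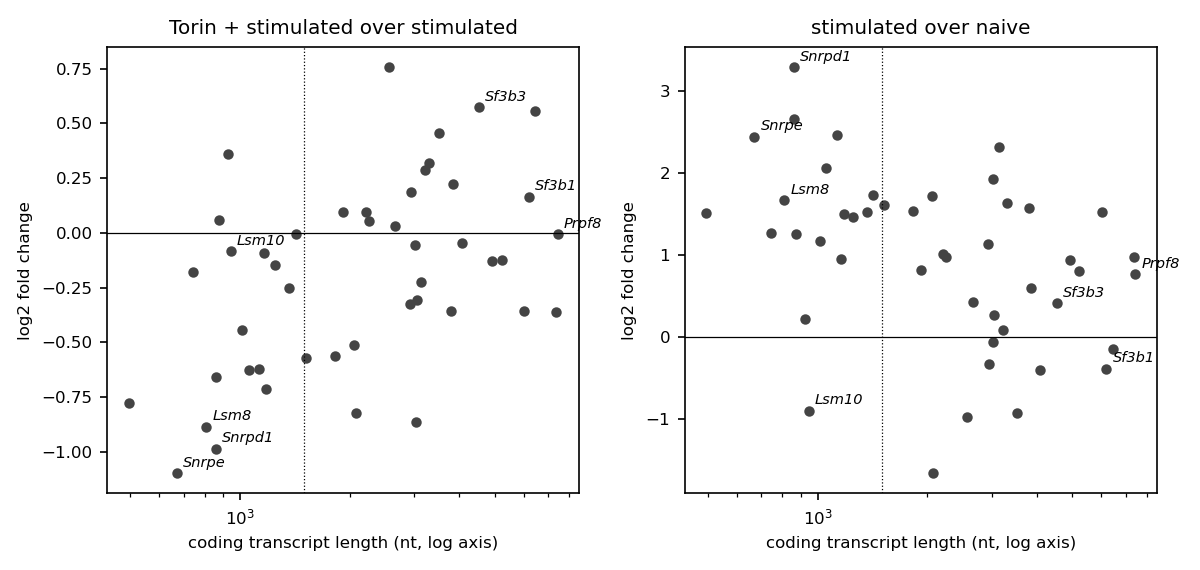
Log2 fold change (vertical axis) against the length of the longest coding transcript in nt (log axis) for the 46 members. The left panel shows Torin over stimulated cells and the right panel stimulated over naive cells, with a dotted line at 1500 nt. Short members such as Snrpe and Snrpd1 are low in the left panel and high in the right panel, with rho of 0.47 and -0.45.

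The transcript table holds, for 42 members, both coding transcripts and transcripts annotated as nonsense-mediated decay, retained intron or processed transcript, called nonproductive here. Splicing factors are known to hold down their own output through such transcripts. The log2 ratio of nonproductive to coding CPM, each plus 0.5, fell in stimulated over naive cells in 23 of 40 members tested and rose in 0 (limma, Benjamini-Hochberg over 5995 genes), against 25.7% of all genes that fell and 15% that rose. In Torin over naive cells it fell in 14 of 40 and rose in 0, against 15.4% and 9.76% of all genes. Between Torin and stimulated cells it rose in 0 and fell in 0, against 1.28% and 0.901% of all genes, with 11 of 40 (27.5%) at an unadjusted p under 0.05, against 17.6% of all genes. Where nonproductive transcripts are near 0 CPM, this ratio moves with the gene's own level. A minimum of 1 CPM of nonproductive transcripts, as a mean over all libraries, was added after the data were seen and left 25 members among 2841 genes. It lessens this dependence but does not remove it for a gene that is low in a single group.

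With that minimum, the ratio fell in stimulated over naive cells in 14 of 25 members and rose in 0, against 22.2% of the 2841 genes that fell and 7.39% that rose, with medians of -1.19 for the members and -0.38 for all genes. The 14 were Lsm2, Lsm3, Lsm5, Lsm7, Lsm8, Prpf31, Prpf38b, Sf3b1, Sf3b3, Snrpa1, Snrpb, Snrpc, Snrpd1 and Snrpe. Of these, Snrpd1 had 1.16 CPM of nonproductive transcripts in Torin cells, 2.41 CPM in stimulated cells and 0.357 CPM in naive cells, the last below the added 0.5, so its ratio also moves with its own level. The other members named had means of at least 1.8 CPM in each group. In Torin over naive cells it fell in 8 of 25 and rose in 0, against 9.15% and 3.06% of all genes. Between Torin and stimulated cells 0 of 25 rose and 0 fell, against 0.563% and 0.317% of all genes, with 5 of 25 (20%) at an unadjusted p under 0.05, against 15.1% of the 2841 genes, and medians of 0.29 for the members and 0.11 for all genes.

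Sf3b3 had one of the larger nonproductive shares, at 31.3, 35.9 and 26% in Torin cells, 24.1, 19.9, 21 and 22.6% in stimulated cells and 35.8, 39.9, 46 and 43.9% in naive cells. The 3 groups did not overlap except that the highest Torin library just passed the lowest naive one. Most of it was the single-exon retained-intron transcript Sf3b3-205, in the gene that overlaps Cog4 on the opposite strand. It averaged 20.1 CPM in Torin cells, 9.22 CPM in stimulated cells and 13.5 CPM in naive cells. The coding transcript averaged 48.6, 37.1 and 21 CPM in the same order. The gene-level rise of Sf3b3 under Torin therefore includes retained-intron RNA as well as coding RNA. The ratio was -1.30 ± 0.23 (SE) in stimulated over naive cells (limma adjusted p = 0.00264) and 0.65 ± 0.25 (SE) in Torin over stimulated cells (limma adjusted p = 0.242). Snrpc had 1.57, 1.34 and 1.41% in Torin cells, 1.02, 0.799, 0.792 and 0.985% in stimulated cells and 3.13, 2.08, 3.13 and 2.19% in naive cells, in a retained-intron transcript. Here the 3 groups were apart, with a ratio of -1.49 ± 0.18 (SE) in stimulated over naive cells (limma adjusted p = 0.000338) and 0.65 ± 0.19 (SE) in Torin over stimulated cells (limma adjusted p = 0.131). Lsm5 had 3.24, 3.55 and 3.54% in Torin cells, 2.22, 2.35, 2.57 and 2.4% in stimulated cells and 6.02, 5.65, 5.07 and 4.56% in naive cells. Its groups were apart as well, at -1.22 ± 0.14 (SE) for stimulated over naive cells (limma adjusted p = 0.000278) and 0.56 ± 0.15 (SE) for Torin over stimulated cells (limma adjusted p = 0.1).

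Exons of Snrpb and Snrpa1 are shown because each sets a decay transcript apart from a coding one. In Snrpb an added exon of 124 nt, exon 3 of transcript Snrpb-203, carries the annotated stop codon and lies at chr2:130176629-130176752 on the minus strand of GRCm38 (GENCODE M21). The main coding transcript lacks it. The exon is printed from its start through the stop codon, which is in capitals. For Snrpa1 the event runs the other way: its decay transcript skips exon 6 of the coding transcript, 80 nt long and so not a whole number of codons, and this exon is printed whole.
Snrpb-203 exon, chr2:130176695-130176752, minus strand: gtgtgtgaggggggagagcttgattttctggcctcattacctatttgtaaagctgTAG
Snrpa1 exon skipped in the decay transcript, chr7:66070119-66070198, plus strand: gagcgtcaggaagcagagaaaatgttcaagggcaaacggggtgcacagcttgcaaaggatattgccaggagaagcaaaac

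The share of Snrpb-203 in the Snrpb estimate was 1.14, 1.02 and 1.2% in Torin cells, 0.986, 0.785, 0.608 and 0.576% in stimulated cells and 1.48, 1.16, 1.62 and 1.69% in naive cells. The stimulated libraries were all below the Torin and naive ones, and the lowest naive library lay within the Torin range. For all nonproductive Snrpb transcripts the log2 ratio was -1.05 ± 0.19 (SE) in stimulated over naive cells (limma adjusted p = 0.00299) and 0.63 ± 0.20 (SE) in Torin over stimulated cells (limma adjusted p = 0.172). In absolute terms these transcripts averaged 19.8 CPM in Torin cells, 13.9 CPM in stimulated cells and 14.6 CPM in naive cells, while total Snrpb rose in stimulated over naive cells. The share of the Snrpa1 decay transcript was 12.6, 17.1 and 17.5% in Torin cells, 11.9, 6.02, 14.9 and 7.23% in stimulated cells and 15.2, 18.9, 18.6 and 29.8% in naive cells. Stimulated libraries were lower than naive ones and overlapped the Torin ones. The ratio for Snrpa1 was -1.46 ± 0.36 (SE) in stimulated over naive cells (limma adjusted p = 0.013) and 0.83 ± 0.39 (SE) in Torin over stimulated cells (limma adjusted p = 0.347).

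**Figure D5:**
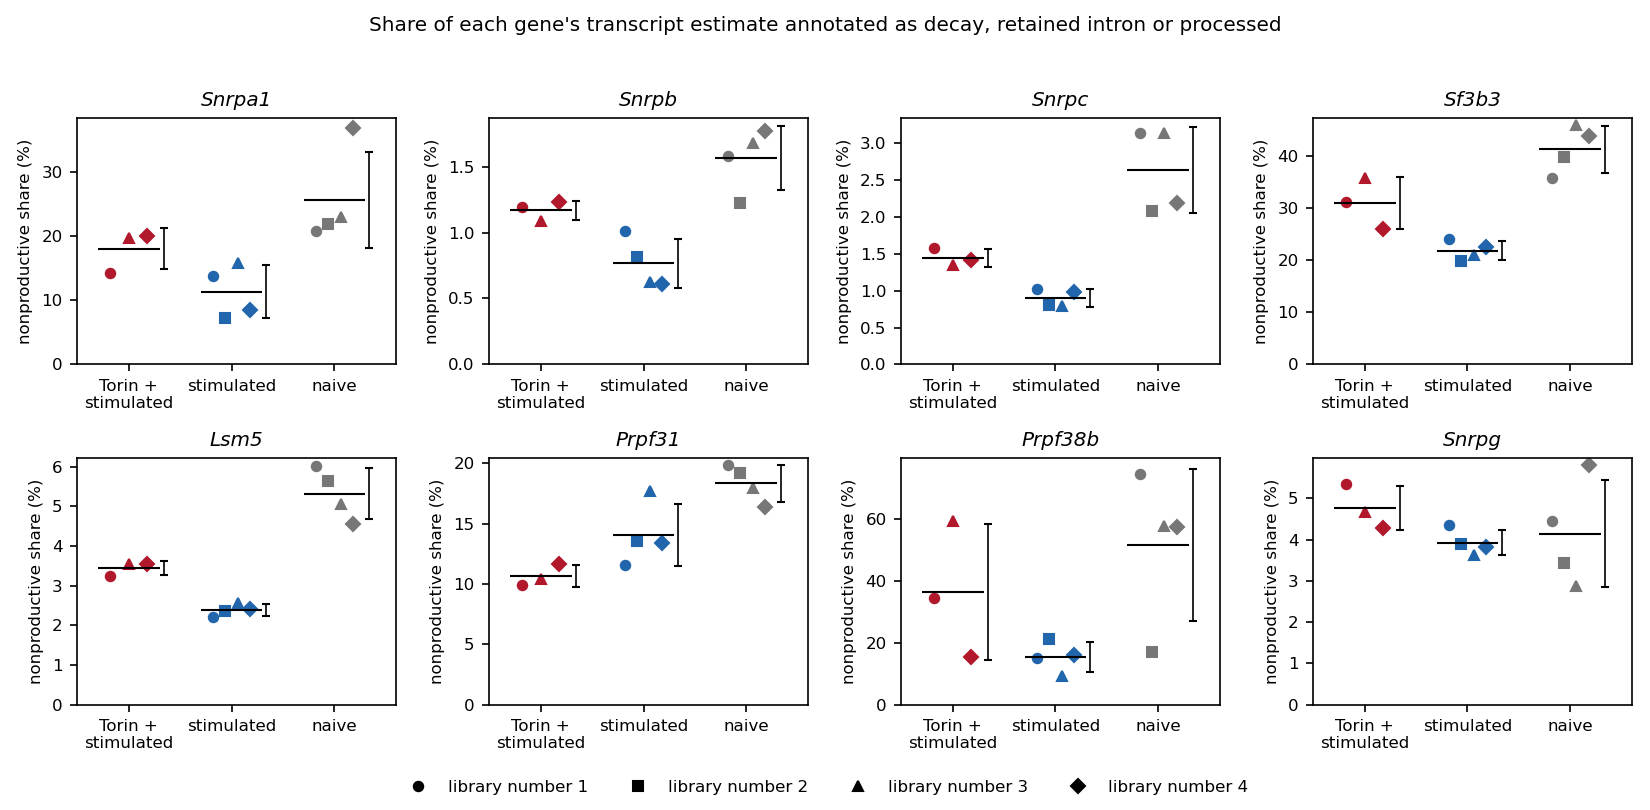
Share of nonproductive transcripts (%) in the transcript estimate of 8 members, in every library of Torin, stimulated and naive cells, with the mean as a line, the SD as a bar and the library number as the point shape. For Lsm5, the stimulated libraries lie between 2.22 and 2.57%, the Torin ones between 3.24 and 3.55% and the naive ones between 4.56 and 6.02%, while the groups of Snrpg overlap.

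Promoters of the members were read from RefSeq on GRCm38.p6, over 250 bases before to 50 bases after the start, for the 37 of 46 members with an entry. Motifs were searched on both strands, as CCGGAAG (the core bound by ETS factors), GCGCATGC (part of the NRF1 motif), CACGTG (the E-box bound by MYC, which is its own reverse complement) and TATAAA (the TATA box). The ETS core CCGGAAG was found for 14 of 37 members (37.8%), against 9.9% of all 27025 genes and 12.9% of 17492 coding genes. GCGCATGC was found for 3 (8.1%, against 3.0% of all genes), CACGTG for 4 (10.8%, against 8.1%) and TATAAA for 3 (8.1%, against 15.7%). A match is a description of the letters and not of a bound site. These shares count genes whether or not they passed the filter on low counts, while all members did. The share among the genes tested was not computed. The 120 bases before the start are printed for the members that passed the test between Torin and stimulated cells and have an entry, with matches in capitals.
Snrpe upstream, chr1:133610281-133610400, minus strand: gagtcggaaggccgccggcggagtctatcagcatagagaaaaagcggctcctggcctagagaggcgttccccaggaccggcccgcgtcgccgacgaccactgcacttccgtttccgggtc
Snrpd3 upstream, chr10:75517922-75518041, plus strand: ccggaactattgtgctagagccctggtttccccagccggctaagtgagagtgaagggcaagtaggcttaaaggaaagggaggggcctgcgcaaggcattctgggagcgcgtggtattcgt
Lsm8 upstream, chr6:18848515-18848634, plus strand: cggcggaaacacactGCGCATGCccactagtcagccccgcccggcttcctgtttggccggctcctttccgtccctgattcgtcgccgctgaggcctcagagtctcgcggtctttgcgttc
Sf3b6 upstream, chr12:4817488-4817607, plus strand: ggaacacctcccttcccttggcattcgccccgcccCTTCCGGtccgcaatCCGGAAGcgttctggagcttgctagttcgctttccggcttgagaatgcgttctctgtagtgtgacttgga
Sf3b3 upstream, chr8:110846804-110846923, minus strand: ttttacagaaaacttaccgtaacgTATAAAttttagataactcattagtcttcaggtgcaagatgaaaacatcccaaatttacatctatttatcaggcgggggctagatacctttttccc

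Sf3b6 holds CCGGAAG on each strand within these letters, Lsm8 holds GCGCATGC and Sf3b3 holds TATAAA. Sf3b3 also holds CCGGAAG upstream of the printed bases, at position -229. Snrpd3 holds none of the 4 in the printed bases or in the rest of its window. Snrpe holds none in the printed bases, and a pair of overlapping CCGGAAG matches on opposite strands just after its start, from position 3.

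Genes that work with the members were counted in the same fit, from lists chosen with earlier results of these data known. Calls of these partner genes were not examined under the alternatives used for the members, such as the block or leaving out libraries. For each list below, the shares of all genes that rose and fell were 2.32% and 2.3% for Torin over stimulated cells, 19.2% and 20.2% for stimulated over naive cells, and 16.4% and 15.8% for Torin over naive cells. Of 17 other snRNP proteins, 11 rose and 1 fell in stimulated over naive cells, with a median log2 change of 0.68, and 0 rose and 1 fell in Torin over stimulated cells. The one that fell under Torin was Snu13, the U4 protein that Prpf31 contacts. It had 1291, 1249 and 1279 CPM in Torin cells, 1921, 2416, 3281 and 2232 CPM in stimulated cells and 343, 378, 299 and 279 CPM in naive cells. The 3 groups stood apart, as they did for Snrpe and Snrpd1, at -0.95 ± 0.19 (SE), edgeR adjusted p = 0.0215, for Torin over stimulated cells and 2.92 ± 0.18 (SE), edgeR adjusted p = 6.09e-06, for stimulated over naive cells. Ppih, a U4/U6 cyclophilin, rose by 1.69 ± 0.17 (SE), edgeR adjusted p = 2.95e-05, and Snrnp48 of the minor spliceosome fell (-0.70 ± 0.17 (SE), edgeR adjusted p = 0.00724) in stimulated over naive cells. In Torin over naive cells 11 of the 17 rose, led by the U11/U12 protein Snrnp35, which the minor spliceosome list also holds (2.13 ± 0.46 (SE), edgeR adjusted p = 0.00495) and Snu13 (1.97 ± 0.18 (SE), edgeR adjusted p = 5.15e-05).

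Of 18 genes for snRNP assembly, import and the cap, 12 rose and 0 fell in stimulated over naive cells, with a median of 1.23, and 13 rose in Torin over naive cells, with a median of 1.21. Between Torin and stimulated cells 0 of 18 passed the test. Wdr77, which works with the arginine methylase Prmt5 on Sm proteins, rose most (2.20 ± 0.26 (SE), edgeR adjusted p = 6.9e-05), then Gemin5, which binds snRNA for the SMN complex (2.11 ± 0.35 (SE), edgeR adjusted p = 0.000638). Gemin4 and Wdr77 led the rise in Torin over naive cells (2.86 ± 0.57 (SE), edgeR adjusted p = 0.00311, and 2.11 ± 0.27 (SE), edgeR adjusted p = 0.000218). Gemin4 had 15.2, 4.07 and 1.88 CPM in Torin cells, 2.22, 1.95, 3.83 and 2.41 CPM in stimulated cells and 0.833, 1.08, 0.983 and 1 CPM in naive cells, so its Torin mean rests largely on Torin 1.

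Of 14 U2 partners, 6 rose and 1 fell in stimulated over naive cells, and 0 changed between Torin and stimulated cells. U2af1, the reader of the 3' splice site, rose most (1.69 ± 0.17 (SE), edgeR adjusted p = 3.03e-05), then Rbmx2 (1.31 ± 0.21 (SE), edgeR adjusted p = 0.000479), and the helicase gene Ddx42 fell (-0.68 ± 0.12 (SE), edgeR adjusted p = 0.00111). Against naive cells, in Torin cells 8 rose, led by Rbm17 (1.56 ± 0.15 (SE), edgeR adjusted p = 6.17e-05) and Phf5a, an SF3B component (1.28 ± 0.14 (SE), edgeR adjusted p = 9.47e-05). Of 24 factors of the Prp19 complex and the catalytic steps, 13 rose and 2 fell in stimulated over naive cells, with Cwc27 (1.45 ± 0.24 (SE), edgeR adjusted p = 0.000707) and Plrg1 (1.40 ± 0.24 (SE), edgeR adjusted p = 0.000831) rising most and Syf2 (-1.04 ± 0.15 (SE), edgeR adjusted p = 0.000236) and Rbm22 (-0.56 ± 0.14 (SE), edgeR adjusted p = 0.00914) falling. Between Torin and stimulated cells Syf2 rose (0.77 ± 0.16 (SE), edgeR adjusted p = 0.0247) and Bud31 fell (-0.60 ± 0.14 (SE), edgeR adjusted p = 0.0384). In Torin over naive cells 7 of the 24 rose, led by Ppie (1.14 ± 0.15 (SE), edgeR adjusted p = 0.000296) and Cwc27 (1.08 ± 0.26 (SE), edgeR adjusted p = 0.00784), and Dhx16 fell (-0.67 ± 0.22 (SE), edgeR adjusted p = 0.0377).

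Of 11 decapping and decay genes, which work with the cytoplasmic ring, 1 rose and 4 fell in stimulated over naive cells. The 5'-to-3' exonuclease gene Xrn1 fell (-1.79 ± 0.25 (SE), edgeR adjusted p = 0.000225), as did the helicase gene Ddx6 (-1.54 ± 0.13 (SE), edgeR adjusted p = 1.03e-05), and Eif4enif1 rose (2.03 ± 0.30 (SE), edgeR adjusted p = 0.000305). Ddx6 had 11.6, 11.9 and 9.44 CPM in Torin cells, 6.75, 6.84, 7.04 and 7.1 CPM in stimulated cells and 20.1, 20, 20.5 and 20.1 CPM in naive cells. Its 3 groups did not overlap, and it rose in Torin over stimulated cells (0.67 ± 0.13 (SE), edgeR adjusted p = 0.0215). Against naive cells, in Torin cells 1 of the 11 rose and 2 fell, Eif4enif1 (1.91 ± 0.31 (SE), edgeR adjusted p = 0.000921), Xrn1 (-1.13 ± 0.27 (SE), edgeR adjusted p = 0.00866) and Ddx6 (-0.87 ± 0.14 (SE), edgeR adjusted p = 0.000647). Of 12 genes of the minor spliceosome, which removes a rare class of introns, 2 rose and 6 fell in stimulated over naive cells, with a median of -0.56. Armc7 (-1.91 ± 0.29 (SE), edgeR adjusted p = 0.000373) and Rbm41 (-1.94 ± 0.59 (SE), edgeR adjusted p = 0.0232) fell most, and Zcrb1 (0.58 ± 0.12 (SE), edgeR adjusted p = 0.00287) and Snrnp25 (0.51 ± 0.12 (SE), edgeR adjusted p = 0.00599) rose. Rbm41 was low throughout, at no more than 0.914 CPM in any library. Between Torin and stimulated cells 0 of the 12 passed the test. In Torin over naive cells 2 rose, Snrnp35 and Zcrb1 (0.56 ± 0.13 (SE), edgeR adjusted p = 0.00693), and Armc7 fell (-2.05 ± 0.33 (SE), edgeR adjusted p = 0.000767).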

How the data were processed

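Gene and transcript tables of 11 libraries were used as the authors deposited them, in whole estimated counts (55414 genes, 142435 transcripts). Per the submitters' processing notes, the build was mm39, and the tools, with no stated roles, were StringTie 2.1.0, STAR 2.7.1a, DESeq2 1.30.1, SAMtools 1.9 and R 4.0.5. The kit was SMARTer ultra-low input poly(A), per the labels. Gene table columns named Control were read as the samples titled Stim, the one group not named Naive or Torin, and transcript table columns were matched by the number in each sample's description. Symbols, transcript types and lengths came from GENCODE M21 (GRCm38), matched by identifier without version (94.1% of genes, 97.1% of transcripts). Promoters came from RefSeq (GRCm38.p6).

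The test over genes was that of edgeR 4.0.16 under R 4.3.3 (quasi-likelihood, TMM, filterByExpr with a minimum count of 10, 3 group means in 1 model, Benjamini-Hochberg over 22238 genes, threshold 0.05). Nonproductive ratios were tested with limma 3.58.1 (trend) over 5995 genes with a mean of at least 5 CPM. SE is the log2 change divided by the root of F. TPM and the ratios in TPM were computed here. Steps were tested on simulated data. Alternatives were DESeq2 1.42.0, library totals alone, other filters, both groups alone, the library number as a block, and leaving out libraries.

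Deviations of log2 CPM from the group means correlated at 0.11, 0.15 and 0.31 in same-numbered pairs of Torin and stimulated libraries. The values were 0.16, 0.23, 0.15 and 0.29 for stimulated and naive libraries, and 0.08, 0.13 and 0.28 for Torin and naive libraries. Each was above the highest value with another number, which was at most 0.07. The labels do not state a pairing. The main test did not use the numbers, so its p-values ignore what same-numbered libraries share, and the block was an alternative.

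The members, lists and tests were chosen with earlier results of these data known. The members are named, except 1 that is counted but not reported here. Values in every library are given for the members with the largest and smallest change of each role, those called between Torin and stimulated cells, and Snrpb, Snrpd1, Sf3b1, Lsm1, Lsm8, Prpf8 and Prpf19. For each list of partners, up to 2 rises and 2 falls per comparison are named. Sequences of proteins were not used here.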

Additional observations from a re-analysis of the deposited data

Results flagged for a closer look

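In 142 groups of 4 libraries (46 members in CPM and 25 members in nonproductive share, in stimulated and in naive cells), the highest or lowest library was set against the others by the ratio of its gap to the group's range. That ratio exceeded Dixon's 95% critical value in 5 groups, and chance gives about 1 in 20. Stimulated 3 had 2478 CPM of Snrpf, against 1424 to 1565 CPM in the other stimulated libraries (ratio 0.866). Naive 2, the library with the most granulocyte RNA, had 347 CPM of Snrpf, against 241.9 to 254.5 CPM in the other naive libraries (ratio 0.88). Stimulated 1 had 20.4 CPM of Prpf38b, against 17.9 to 18 CPM (ratio 0.929). The nonproductive share of Snrpb2 was 3.62% in stimulated 3, against 0.0451 to 0.15% in the other stimulated libraries (ratio 0.971). That of Snrpa1 was 36.8% in naive 4, the library with the most B cell marker RNA, against 20.8 to 22.9% in the other naive libraries (ratio 0.869).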

How the results depend on the processing

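Counts of members that rose and fell in Torin over stimulated cells (1 and 5) moved under most alternatives: DESeq2 gave 2 and 10, library totals alone 1 and 3, no filter 0 and 1, the replicate block 0 and 1, both groups alone 1 and 2, number 4 left out 0 and 0, and number 2 left out 0 and 1. Leaving out 1 library gave 0 to 1 that rose and 0 to 6 that fell. In stimulated over naive cells (34 and 3), library totals alone gave 6 that fell, and leaving out 1 library gave 31 to 34 that rose and 2 to 3 that fell. There Lsm1 (-0.07) and Sf3b3 (-0.08) changed sign under library totals alone. In Torin over naive cells (35 and 1), library totals alone gave 22 that rose, and 2 fell under DESeq2, library totals alone, a mean of at least 5 CPM, the replicate block and number 4 left out; leaving out 1 library gave 28 to 36 that rose and 1 to 2 that fell. Same-numbered Torin and naive libraries correlated at 0.08, 0.13 and 0.28, each above the highest value with another number (0.07, 0.05 and -0.02). The replicate block changed no other count by over 1.5 times. For the nonproductive ratio of Torin over stimulated cells, a prior of 2 CPM gave 2 that rose (Lsm5 and Sf3b6), decay and retained-intron transcripts alone gave 1 (Lsm7), and leaving out 1 library gave 0 to 1 that rose and 0 that fell. Nonproductive Sf3b6 transcripts averaged 0.939 CPM in Torin cells, 0.51 CPM in stimulated cells and 0.931 CPM in naive cells. These are below that prior, so the Sf3b6 ratio also moves with the level of the gene. The minimum of 1 CPM, added after the data were seen, gave 14 that fell in stimulated over naive and 8 in Torin over naive cells among fewer members tested. Without 1 library each, 20 to 23 and 12 to 16 fell. Of the values of single members under the alternatives other than leaving out 1 library, 332 of 365 kept their side of the threshold in Torin over stimulated, 334 in stimulated over naive and 327 in Torin over naive cells. The cause of these shifts was not tested. With 3 or 4 libraries a group, a difference that did not pass the test is not shown to be absent.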
